A study of Mus musculus with 2 samples.

Results

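The FoxO and FoxP genes considered here are *Foxo1*, *Foxo3*, *Foxo6*, *Foxp1*, *Foxp2* and *Foxp4*, 6 of the 21938 protein-coding genes counted, chosen by name. For each, DNA fragments were counted at the promoter (1 kb on either side of the annotated start), over the gene body and in 500-bp bins of the 50-kb flanks. The data are single-cell ATAC-seq, in which a transposase cuts open chromatin, of bone marrow hematopoietic stem cells (HSCs) of C57BL/6 mice. There was 1 library from mice 10 weeks old (young) and 1 from mice 20 months old (aged), and the labels name no treatment or engineered allele for either group. Per the study's methods the mice were female, and how many animals went into each library is not stated in the sources used here. Both groups were sorted as positive for Sca-1, c-kit and CD150, and as negative for lineage markers, CD34, CD48, Flt3 and what the labels write as IL-7. With 1 library per age there were no replicates, no test was possible, and every interval below covers counting error only.

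FoxO factors are forkhead proteins that growth factor signalling keeps out of the nucleus: insulin or cytokine receptors activate PI3K and the kinase Akt, which phosphorylates FoxO and sends it to the cytoplasm. When that signal is low or oxidative stress is high, FoxO enters the nucleus and switches on genes for cell-cycle arrest, antioxidant defence and autophagy, a programme known to be needed for the quiescence and long life of HSCs. FoxP factors are forkhead repressors that work as dimers with co-repressors and are best known from lymphocyte, lung and brain development.

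Barcodes called as cells with 3000 to 20000 in-peak fragments gave 4887 of 5028 young and 3405 of 3694 aged cells, with 50069575 and 38663214 unique fragments and a median of 9890 and 11020 per cell. The libraries shared 26 cell barcodes. Short fragments, below the length wrapped on a nucleosome, were 59.8% of all young and 55.0% of all aged fragments, and 4.17% of the young and 7.31% of the aged cells were marked as doublets and kept. Promoters of 12 HSC markers summed to 279 young and 286 aged FPM (fragments per 1000000 in-peak fragments, the scale of all levels below), against 65.3 and 63.4 for 7 B-cell markers, 18.6 and 18.0 for 7 T-cell markers, 28.2 and 31.4 for 8 mature myeloid markers, 93.5 and 86.0 for 7 erythroid markers, 152 and 139 for 7 megakaryocyte markers and 59.5 and 69.3 for 6 stromal and endothelial markers. None of these markers lacked fragments in either library, and their part in the results below was not tested.

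Most of the sequences below are those where the ages differed, each the central 300 bases of a peak or the whole of a narrower one, on the plus strand of GRCm38 (the same build as mm10). Capitals mark consensus letters found on either strand. These were TGTTTAC for forkhead factors (FOX), TGANTCA for AP-1, TTCNNNGAA for STAT factors, GAGGAAG for PU.1, AGATAA for GATA factors, TGTGGTT for RUNX factors and TTGCNNAA for C/EBP, a list chosen after the data had been seen. Letters of CRE, ISRE, ETS, MYB and HOXA9 elements were searched as well and were not found in the printed sequences, and E-box letters, found in the *Foxo3* and *Foxo6* ones, are not marked. None of these patterns contains another, although matches can overlap, and a match describes letters, not binding. In the same order, the central 300 bases of all 163999 peaks held these letters in 4.07%, 12.2%, 9.16%, 20.9%, 13.8%, 11.8% and 12.2%. The first sequence is shown because it is the peak with the most fragments at *Foxo1* and holds the letters of its own protein family, in the promoter just upstream of the start:
Foxo1 promoter, chr3:52267948-52268247: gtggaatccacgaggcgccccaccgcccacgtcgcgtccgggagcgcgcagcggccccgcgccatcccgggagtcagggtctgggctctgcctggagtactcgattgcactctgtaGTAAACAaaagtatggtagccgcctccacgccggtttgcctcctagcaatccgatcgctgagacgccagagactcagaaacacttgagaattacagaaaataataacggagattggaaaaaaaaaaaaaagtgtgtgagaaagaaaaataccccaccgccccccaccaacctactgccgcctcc
The next 3 are the peaks with the highest aged-to-young ratio at each FoxO gene:
Foxo1 intron, chr3:52302844-52303122: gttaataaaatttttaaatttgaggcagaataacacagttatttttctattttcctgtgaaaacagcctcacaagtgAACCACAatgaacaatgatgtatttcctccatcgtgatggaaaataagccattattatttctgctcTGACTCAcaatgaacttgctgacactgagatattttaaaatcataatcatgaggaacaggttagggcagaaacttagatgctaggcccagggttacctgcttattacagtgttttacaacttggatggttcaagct
Foxo3 intron, chr10:42251222-42251521: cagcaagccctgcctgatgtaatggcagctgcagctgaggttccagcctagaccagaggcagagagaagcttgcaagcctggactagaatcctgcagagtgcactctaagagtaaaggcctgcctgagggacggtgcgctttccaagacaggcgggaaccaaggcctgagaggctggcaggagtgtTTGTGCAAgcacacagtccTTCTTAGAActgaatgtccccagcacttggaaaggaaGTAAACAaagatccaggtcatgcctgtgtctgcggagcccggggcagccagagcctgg
Foxo6 downstream flank, chr4:120223749-120224048: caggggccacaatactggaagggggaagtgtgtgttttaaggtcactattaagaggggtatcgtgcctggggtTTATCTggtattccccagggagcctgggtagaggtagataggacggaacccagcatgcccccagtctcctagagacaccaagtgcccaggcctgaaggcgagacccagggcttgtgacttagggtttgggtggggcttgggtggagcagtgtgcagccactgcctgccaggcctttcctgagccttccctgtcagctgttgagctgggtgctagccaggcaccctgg
For *Foxp1*, the peak that gained most in the aged library and the 2 that lost most are shown:
Foxp1 downstream flank, chr6:98878514-98878813: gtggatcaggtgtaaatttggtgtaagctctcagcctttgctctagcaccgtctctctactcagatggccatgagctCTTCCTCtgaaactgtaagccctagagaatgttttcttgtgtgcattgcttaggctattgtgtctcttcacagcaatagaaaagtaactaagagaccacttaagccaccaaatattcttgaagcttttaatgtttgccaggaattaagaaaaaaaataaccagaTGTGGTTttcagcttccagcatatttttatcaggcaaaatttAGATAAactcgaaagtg
Foxp1 intron, chr6:99283292-99283591: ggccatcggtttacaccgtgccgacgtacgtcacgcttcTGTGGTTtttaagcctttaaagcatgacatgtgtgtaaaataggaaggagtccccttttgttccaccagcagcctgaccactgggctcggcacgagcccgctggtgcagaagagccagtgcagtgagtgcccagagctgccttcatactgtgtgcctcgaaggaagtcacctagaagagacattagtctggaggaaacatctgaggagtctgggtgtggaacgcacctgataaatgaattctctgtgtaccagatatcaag
Foxp1 intron, chr6:99241665-99241964: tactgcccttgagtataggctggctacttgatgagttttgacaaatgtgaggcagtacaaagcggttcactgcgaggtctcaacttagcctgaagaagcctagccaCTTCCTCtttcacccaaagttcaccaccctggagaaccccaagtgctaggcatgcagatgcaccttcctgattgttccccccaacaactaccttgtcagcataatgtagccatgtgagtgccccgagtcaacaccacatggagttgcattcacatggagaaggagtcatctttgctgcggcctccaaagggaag
For *Foxp2*, these are the 2 narrow peaks upstream of its start, in neither of which any of these letters was found:
Foxp2 upstream, chr6:14899939-14900079: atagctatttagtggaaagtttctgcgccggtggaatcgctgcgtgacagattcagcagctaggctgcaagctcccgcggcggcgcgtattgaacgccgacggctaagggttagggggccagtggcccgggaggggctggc
Foxp2 upstream, chr6:14900186-14900336: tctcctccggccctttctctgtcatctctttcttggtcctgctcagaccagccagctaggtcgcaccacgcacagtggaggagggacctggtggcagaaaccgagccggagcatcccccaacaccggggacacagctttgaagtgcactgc

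At the promoters, none of the 6 genes differed between the ages by more than 0.32 on the log2 scale, the limit used here for promoters, other starts and gene bodies. Over all 17711 promoters with at least 20 fragments, 11.4% were higher and 6.54% lower in the aged library by that measure. The median log2 ratio (aged over young) was -0.05 for the 6 genes and -0.05 for all promoters tested. All 6 promoters were open in both libraries and passed the fragment minimum. All lay in CpG-rich DNA, with 117 to 215 CpG dinucleotides in the window against a median of 61 over all protein-coding promoters.

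*Foxo3* (chr10:42181841-42276755, minus strand), the FoxO gene best known for holding HSCs in quiescence, had the most open promoter of the 6. It held 2719 young and 1831 aged fragments, or 78.9 FPM in the young library (95% interval 76.0 to 81.9) and 70.5 in the aged one (67.3 to 73.8). The aged level was the lower one and the intervals did not overlap, with a log2 ratio of -0.16 (-0.25 to -0.08). Among the 12790 promoters with at least 500 fragments, 13.8% had a lower ratio, so *Foxo3* lay within the common range, whose 5th and 95th percentiles were -0.22 and 0.29. The lower aged level was found next to the start, on both sides of it. In the 500 bp after it the young library held 29.4 and the aged 25.2 FPM, a log2 ratio of -0.22 (-0.37 to -0.08), and in the 500 bp before it 22.4 and 19.9 (-0.17, -0.34 to -0.01). A second and higher summit of cuts lay about 975 bp upstream of the start, with scaled cuts of 15.01 young and 14.0 aged per 50 bp. In the window that holds it, from 1000 to 500 bp before the start, the log2 ratio was -0.04 (-0.18 to 0.10). From 500 to 1000 bp after the start it was -0.20 (-0.42 to 0.01), and both intervals held 0.

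*Foxo1* (chr3:52268336-52353221, plus strand), which also serves B- and T-lymphoid development, had 1397 young and 1013 aged promoter fragments, or 40.6 and 39.0 FPM. Its intervals overlapped and the log2 ratio was -0.06 (-0.17 to 0.06). *Foxo6* (chr4:120267079-120287349, minus strand), a FoxO gene known mainly from the brain and whose protein shuttles little out of the nucleus, had 1666 and 1190 fragments, 48.4 and 45.8 FPM (-0.08, -0.19 to 0.03). Its cuts did not centre on the annotated start but about 675 bp upstream of it in both libraries, with scaled cuts of 10.2 young and 10.5 aged per 50 bp.

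*Foxp1* (chr6:98925338-99522721, minus strand), a repressor needed for B-cell development and for quiescence of naive T cells, had 1503 young and 1100 aged promoter fragments, 43.6 and 42.3 FPM (log2 ratio -0.04, -0.16 to 0.07). *Foxp4* (chr17:47867133-47924645, minus strand), a relative studied in lung and gut, had 1556 and 1198, or 45.2 and 46.1 FPM (0.03, -0.08 to 0.14). For both genes the libraries' intervals overlapped. *Foxp2* (chr6:14901349-15441977, plus strand), best known for its part in speech and song circuits of the brain, had the least open promoter of the 6 in both libraries and the only one whose interval lay above 0. It held 886 young and 802 aged fragments, 25.7 FPM (24.1 to 27.5) against 30.9 (28.8 to 33.1), a log2 ratio of 0.26 (0.12 to 0.40), higher than that of 94.4% of promoters with at least 500 fragments.

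**Figure D1:**
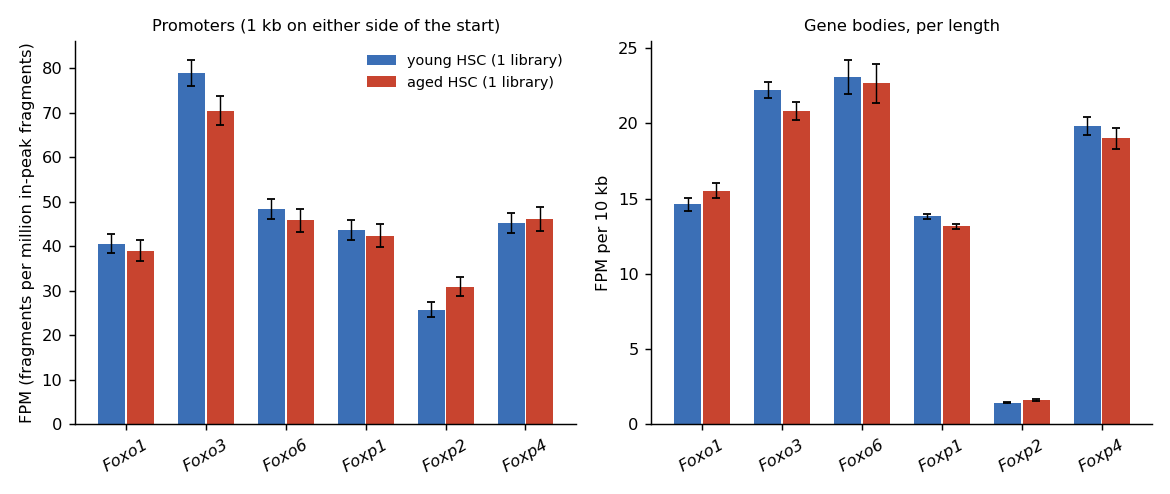
Fragments at the promoters (left, FPM) and over the gene bodies (right, FPM per 10 kb of gene) of the 6 genes in the young (blue) and aged (red) library, with exact Poisson 95% intervals as error bars. *Foxo3* has the highest and *Foxp2* the lowest promoter level in both libraries, and *Foxp2* stands below the others per length of gene.

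In order of promoter level per window of the same length, *Foxo3* was first and *Foxp2* last in both libraries. In the young library *Foxo6*, *Foxp4*, *Foxp1* and *Foxo1* followed each other at 48.4, 45.2, 43.6 and 40.6 FPM, and the interval of each overlapped that of the next. The gap from *Foxo3* to *Foxo6* and that from *Foxo1* to *Foxp2* were larger than the intervals. In the aged library the order within this group was *Foxp4*, *Foxo6*, *Foxp1* and *Foxo1*, at 46.1, 45.8, 42.3 and 39.0 FPM, again with each interval overlapping the next and with the same gaps on either side.

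The share of cells with at least 1 promoter fragment was then counted after each cell had been thinned to 3000 in-peak fragments, which left out 103 young and 137 aged cells. A *Foxo3* promoter fragment was present in 21.3% of 4784 young cells (20.1 to 22.5) and 18.6% of 3268 aged cells (17.3 to 20.0). Without thinning the shares were 41.3% and 40.3%. For *Foxp2* the shares were 6.98% (6.28 to 7.74) and 8.26% (7.34 to 9.26) after thinning, with overlapping intervals, and 16.3% and 19.9% without it. The other 4 genes lay between 10.6% and 13.3% of young cells and between 10.7% and 13.1% of aged cells, and each gene's intervals overlapped. Windows of the same width without a peak, in the same genes and flanks, had a mean share of 0.06% to 0.33%, far below every promoter.

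Fragment length, which the choice of genes did not use, was shortest at *Foxo6*. Short fragments were 78.0% of its young and 79.6% of its aged ones, against 67.6% and 63.97% over all promoters. The share was lower in the aged library at *Foxo3* (74.4% and 69.6%), *Foxo1* (59.3% and 52.5%) and *Foxp2* (61.9% and 53.6%), where the intervals did not overlap. At *Foxp1* (58.5% and 55.2%), *Foxp4* (67.9% and 64.6%) and *Foxo6* they did. All fragments of the libraries differed in the direction seen at *Foxo3*, *Foxo1* and *Foxp2* (59.8% and 55.0%), so these differences cannot be told apart from one between the libraries.

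**Figure D2:**
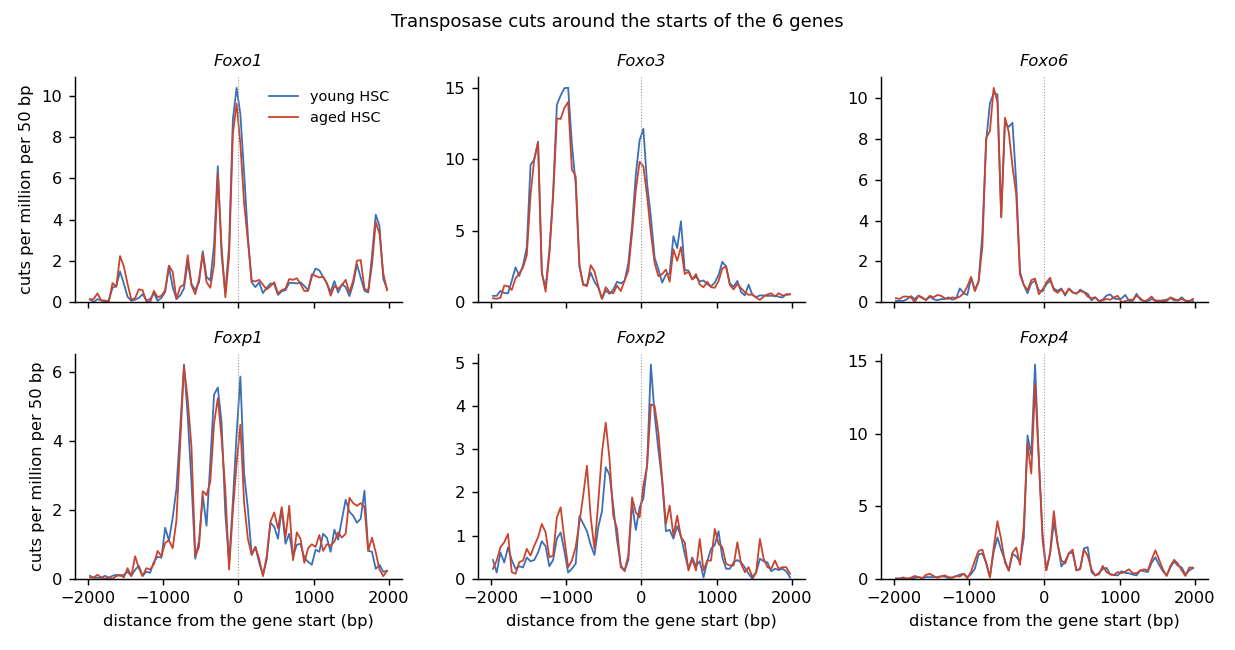
Transposase cuts per 1000000 in-peak fragments in bins of 50 bp from 2 kb before to 2 kb after the start of each gene (x axis, bp), in the young (blue) and aged (red) library. The libraries overlie each other at most summits, and at *Foxp2* the aged line runs above the young one upstream of the start but not at its highest summit, 125 bp after the start.

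The *Foxp2* difference was examined in windows of 500 bp from 2 kb before to 2 kb after each start, which were chosen after the data had been seen. Of 48 such windows at the 6 genes, 45 held at least 50 fragments. In the aged library 4 were over 1.5-fold higher and 0 lower, that is 4 of 45, where all promoters together gave 7.17% higher and 1.83% lower, so the share of higher windows was near the background. These 4 windows lay upstream of *Foxp2* and *Foxo1*, 2 at each gene.

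At *Foxp2* the window from 1000 to 500 bp before the start held 205 young and 252 aged fragments, 5.95 and 9.70 FPM, a log2 ratio of 0.70 (0.43 to 0.98). The window from 1500 to 1000 bp before it held 140 and 164 fragments (0.63, 0.30 to 0.97). In the 500 bp after the start, which hold its largest peak, there were 465 and 373 fragments and the ratio was 0.09 (-0.11 to 0.29). In the last 500 bp before the start the ratio was 0.28 (0.04 to 0.51), and in the 3 windows from 500 to 2000 bp after it 0.19 to 0.49 with intervals that held 0. All 8 *Foxp2* windows thus had ratios above 0, and those past 1.5-fold lay upstream. Cuts in the 50 bp centred 725 bp upstream were 1.10 for the young and 2.62 for the aged library, scaled like the fragments, while those centred 125 bp downstream were 4.96 and 4.04. The 2 upstream peaks printed above, centred 1340 and 1088 bp before the start, had 65 young and 75 aged fragments (0.61, 0.12 to 1.12) and 75 and 89 fragments (0.65, 0.19 to 1.12).

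*Foxo1* showed a like arrangement farther out. From 1500 to 1000 bp before its start it held 50 young and 73 aged fragments (log2 ratio 0.94, 0.41 to 1.502), and from 2000 to 1500 bp 85 and 106 (0.72, 0.30 to 1.15). A narrow peak centred 1564 bp before the start lay there, with 77 and 94 fragments (0.69, 0.25 to 1.15). On the main promoter the ratio was of the opposite sign, -0.16 (-0.32 to -0.01) in the 500 bp before the start. Over all promoters the median ratio of these windows was 0.05 to 0.10 from 2000 to 500 bp before the start and -0.07 in the last 500 bp, so the sign of the *Foxo1* values at both places was that of the median promoter, and the upstream values were larger. *Foxo1* and *Foxp2* ranked above 91.4% to 97.7% of promoters in these 4 windows. With other cells, fragments or scalings the 4 ratios ranged from 0.45 to 1.01, so they stayed above 0 but not always past 1.5-fold.

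**Figure D3:**
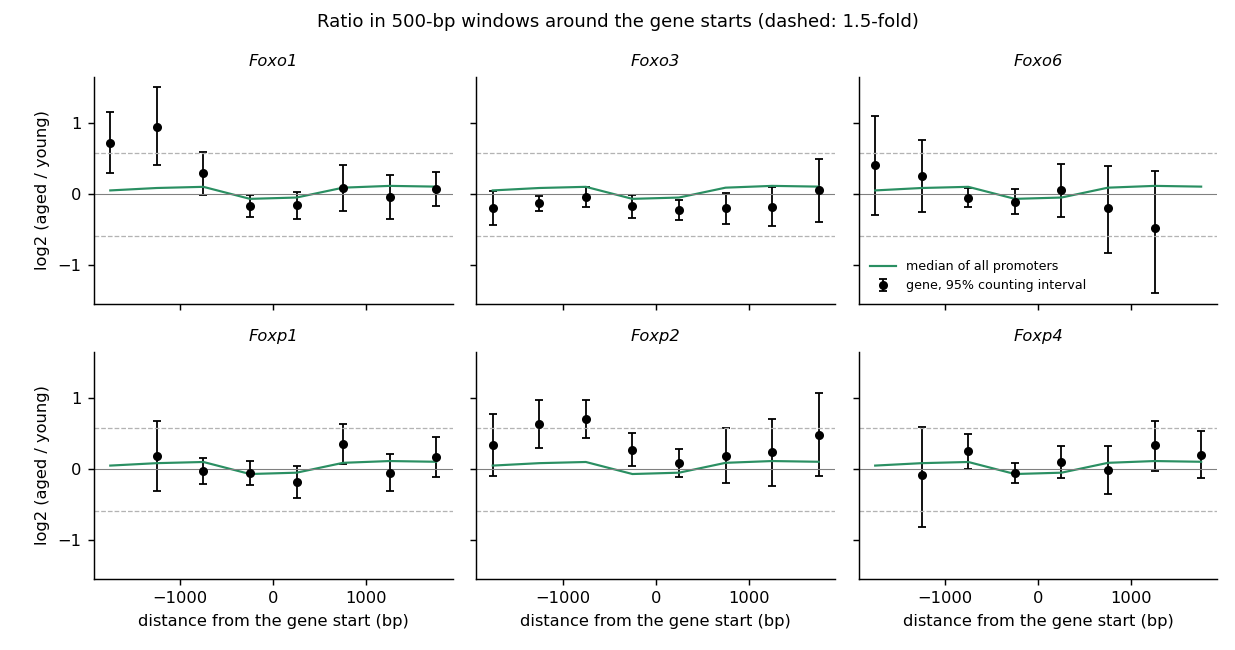
Log2 ratio of aged to young (y axis) in 500-bp windows by distance from the gene start (x axis, bp), for windows with at least 50 fragments, with 95% counting intervals. The green line is the median over all promoters and the dashed lines mark 1.5-fold. The windows above the upper dashed line are 2 upstream of *Foxo1* and 2 upstream of *Foxp2*.

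The genes have 11 other annotated starts over 1 kb from the first, of which 8 belong to *Foxp1*, 2 to *Foxp2* and 1 to *Foxo3*, and all 11 passed the fragment minimum. Differences over 0.32 were found at 3 of them, 2 higher and 1 lower in the aged library, against 20.7% higher and 15.8% lower over 8266 other starts. *Foxp2* accounted for both higher ones. At position 15184647 on chromosome 6, where 4 transcripts begin, the young library had 4.38 and the aged 5.70 FPM (log2 ratio 0.38, 0.04 to 0.72). It fell within the limit without doublets (0.29), with short fragments (0.28) and in cells of 5000 to 10000 in-peak fragments (0.11). At position 15196951 there were 26 and 32 fragments, with an interval that reached below 0 (0.70, -0.09 to 1.51). The lower one, a *Foxp1* start at 99163018, rested on 30 and 16 fragments (-0.46, -1.47 to 0.42), and with a window of 5 kb on either side its sign turned (0.17).

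The *Foxp1* starts differed widely in how open they were. The window at 99521162 overlaps that of the first start, so fragments in the shared stretch were counted at both. The first start, at 43.6 FPM, was followed by those at 99096205 (22.3 young, 24.1 aged), 99521162 (21.3 and 23.4) and 99028942 (20.8 and 17.2), while the one at 99163018 held 0.87 and 0.62. The start at 99028942, far inside the gene, where 5 transcripts begin, was the one with intervals that did not overlap. It had 717 young and 447 aged fragments, a log2 ratio of -0.27 (-0.45 to -0.10), within that limit. The ratio passed the limit without doublets (-0.326), after thinning to 3000 in-peak fragments (-0.334) and with 500 bp on either side (-0.331). The starts at 99096205 and 99521162 gave 0.11 (-0.04 to 0.27) and 0.13 (-0.02 to 0.29). Both intervals held 0, and both signs turned in 1 alternative, to -0.07 with short fragments for the first and to -0.03 with 5 kb on either side for the second.

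Over the gene bodies none of the 6 genes differed by more than 0.32, where 11.3% of 19593 gene bodies were higher and 4.01% lower in the aged library. *Foxo3* had 211 young and 198 aged FPM over its 94.9 kb (log2 ratio -0.09, -0.14 to -0.04), in the same direction as its promoter. *Foxp1*, the longest at 597 kb, had 826 and 787 FPM (-0.07, -0.10 to -0.04). The gene holds many fragments, 28462 young and 20432 aged, so the interval of its small difference is narrow.

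*Foxo1* (124 and 132 FPM over 84.9 kb; 0.09, 0.02 to 0.15) and *Foxp2* (78.4 and 86.8 over 541 kb; 0.15, 0.07 to 0.23) were higher in the aged library by small margins. *Foxo6* (46.8 and 45.9 over 20.3 kb; -0.03, -0.14 to 0.08) and *Foxp4* (114 and 109 over 57.5 kb; -0.06, -0.13 to 0.01) had intervals that held 0. Per 10 kb of gene, *Foxp2* held 1.45 FPM in the young library and the other 5 genes 13.8 to 23.1, so most of this long gene was closed in HSCs of both ages.

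**Figure D4:**
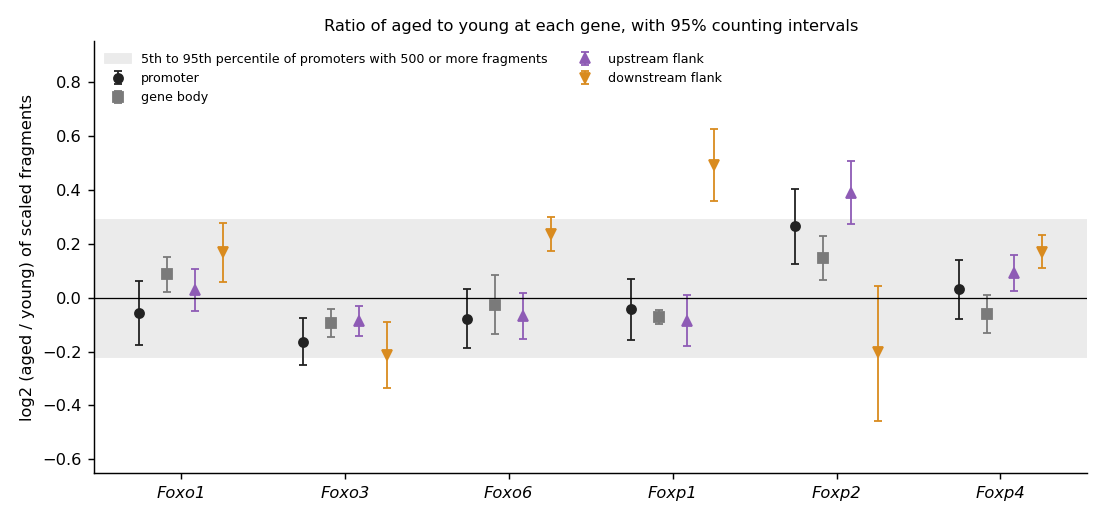
Log2 ratio of aged to young (y axis) at the promoter, over the gene body and summed over each 50-kb flank of the 6 genes, with 95% counting intervals. The grey band spans the 5th to 95th percentile of promoters with at least 500 fragments. The downstream flank of *Foxp1* and the upstream flank of *Foxp2* lie above this promoter band, but no such range was computed for summed flanks. Each upstream flank includes the 1 kb before the start that the promoter window also counts.

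In the flanks, 162 of the 1200 bins of 500 bp held at least 50 fragments. Of these 25 (15.4%) were over 1.5-fold higher and 4 (2.47%) lower in the aged library, where the flanks of all protein-coding genes gave 8.6% higher and 5.15% lower. Downstream flanks held 18 of the 25 higher bins and upstream flanks 7. Neighbouring bins share peaks and are not separate observations.

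Downstream of *Foxo6*, 10 of 31 bins tested were higher and 1 lower, and the whole flank had a log2 ratio of 0.24 (0.17 to 0.30) from 4177 young and 3710 aged fragments. Of the 10, 3 lay on or beside 1 element, the printed *Foxo6* downstream peak at chr4:120223579-120224218, 62693 bp from the start of *Edn2*, which encodes a vasoactive peptide. It held 278 young and 366 aged fragments, 8.07 and 14.1 FPM, a log2 ratio of 0.80 (0.58 to 1.03). Of the letters listed above, its centre held those of GATA factors.

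Downstream of *Foxp1*, the 3 higher bins of 5 tested belonged to a single peak at chr6:98878218-98879110, beyond the 3' end of the gene. It held 311 young and 417 aged fragments, 9.03 and 16.1 FPM (0.83, 0.62 to 1.05), and was the most accessible peak of all 6 loci that rose over 1.5-fold. Its centre held PU.1, RUNX and GATA letters. With it, the downstream flank of *Foxp1* had a log2 ratio of 0.49 (0.36 to 0.62), against -0.085 (-0.18 to 0.01) upstream.

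*Foxo1* had 6 higher bins of 25 tested, 3 on each side, 2 of which are the upstream windows described above. *Foxo3* was the gene with more lower than higher bins, 3 and 1 of 30, and its downstream flank had a log2 ratio of -0.21 (-0.34 to -0.09). *Foxp4* had 3 higher bins of 46. *Foxp2* had 2 of 11, both in the upstream windows, and its upstream flank had a log2 ratio of 0.39 (0.27 to 0.51) from 1219 young and 1204 aged fragments.

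Within the genes and their flanks 260 peaks were found, of which 223 held at least 50 fragments. In the aged library 16 (7.17%) were over 1.5-fold higher and 14 (6.28%) lower, against 13.3% higher and 6.42% lower over all 128231 peaks tested. Most were distal, and for the 110250 distal peaks, over 1 kb from the outermost start of a protein-coding gene, the shares were 14.5% and 7.25%. The median ratio of the peaks was 0.0068 at the 6 loci and 0.015 over all peaks. The share of lower peaks at the 6 loci was thus near that of all peaks, and the share of higher ones was below it.

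*Foxp1* held 121 of the 260 peaks. Of its 105 tested, 4 (3.81%) were higher and 10 (9.52%) lower in the aged library. The shares were 13.3% and 6.42% over all peaks tested, and 14.5% and 7.25% over distal ones. All 10 lower peaks were in introns, 72976 to 563170 bp from the start, but 100 of the 105 tested lay in the gene body. The split into higher and lower peaks depended on the cells. In cells of 5000 to 10000 in-peak fragments it was 8 higher and 5 lower of 82, and after thinning 8 higher and 6 lower of 72.

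The intronic peak that lost most, chr6:99283133-99283751, held 139 young and 43 aged fragments, 4.03 and 1.66 FPM. Its log2 ratio was -1.26 (-1.81 to -0.78), the lowest among peaks of the 6 loci with at least 100 fragments, and it lay between -1.44 and -0.82 under all alternatives tried. Its centre holds RUNX letters. The intronic peak at chr6:99241554-99242076 held 271 and 108 fragments, 7.87 and 4.16 FPM (-0.91, -1.26 to -0.59), with alternatives between -1.21 and -0.73, and PU.1 letters in its centre. Both peaks stayed over 1.5-fold lower in each of these alternatives.

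The other 2 *Foxp1* introns among the 5 lowest peaks were chr6:98959378-98959723, with 106 young and 43 aged fragments (-0.87, -1.44 to -0.37), and chr6:99344427-99344689, with 80 and 36 (-0.72, -1.35 to -0.16). Under the alternatives the second of these ranged from -1.09 to -0.21. The *Foxp1* peak with the most fragments, an intronic element at chr6:99388504-99389401 133768 bp from the start, held 1522 and 1127 fragments, 44.2 and 43.4 FPM. It held as many fragments as the first promoter, and its log2 ratio was -0.03 (-0.14 to 0.09). A second protein-coding model, *Gm20696*, overlaps part of *Foxp1*, the intron of the peak that lost most included, and peaks there cannot be assigned to 1 of these genes.

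At the *Foxo3* locus 31 peaks were tested, 1 higher and 2 lower. The higher one, the intronic peak chr10:42251090-42251654, 25383 bp from the start, held 233 young and 305 aged fragments, 6.76 and 11.7 FPM (0.79, 0.55 to 1.05). It rose in a locus whose median peak had a ratio of -0.19. Its centre, printed above, holds FOX, STAT and C/EBP letters. The alternatives gave 0.73 to 0.84. The lowest *Foxo3* peak, chr10:42152538-42153141, lay 123915 bp from the start, beyond the 3' end, with 124 and 55 fragments (-0.75, -1.25 to -0.30). Its alternatives ranged from -1.02 to -0.35, the latter after thinning and no longer past 1.5-fold.

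At the *Foxo1* locus 3 of 26 tested peaks were higher and 0 lower. The intronic peak chr3:52302844-52303122, 34647 bp from the start, had the highest ratio of all loci among peaks with at least 100 fragments. It held 44 young and 76 aged fragments, 1.28 and 2.93 FPM (1.18, 0.64 to 1.77), and AP-1 and RUNX letters. At *Foxp4*, with 2 higher and 2 lower of 28, the upstream peak chr17:47958074-47958793 held 87 and 119 fragments (0.85, 0.45 to 1.28). Both higher *Foxp4* peaks lay in the flanks, and only 1 of them was over 1 kb from the outermost start of a protein-coding gene.

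*Foxp2* had 4 higher and 0 lower of 13 tested peaks. Besides the 2 upstream peaks these were chr6:15176871-15177058, with 22 young and 30 aged fragments (0.84, 0.01 to 1.72), and chr6:15184473-15184761, at the alternative start described above, with 26 and 40 (1.01, 0.28 to 1.80). Both rest on few fragments. *Foxo6* had 2 higher and 0 lower of 20.

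**Figure D5:**
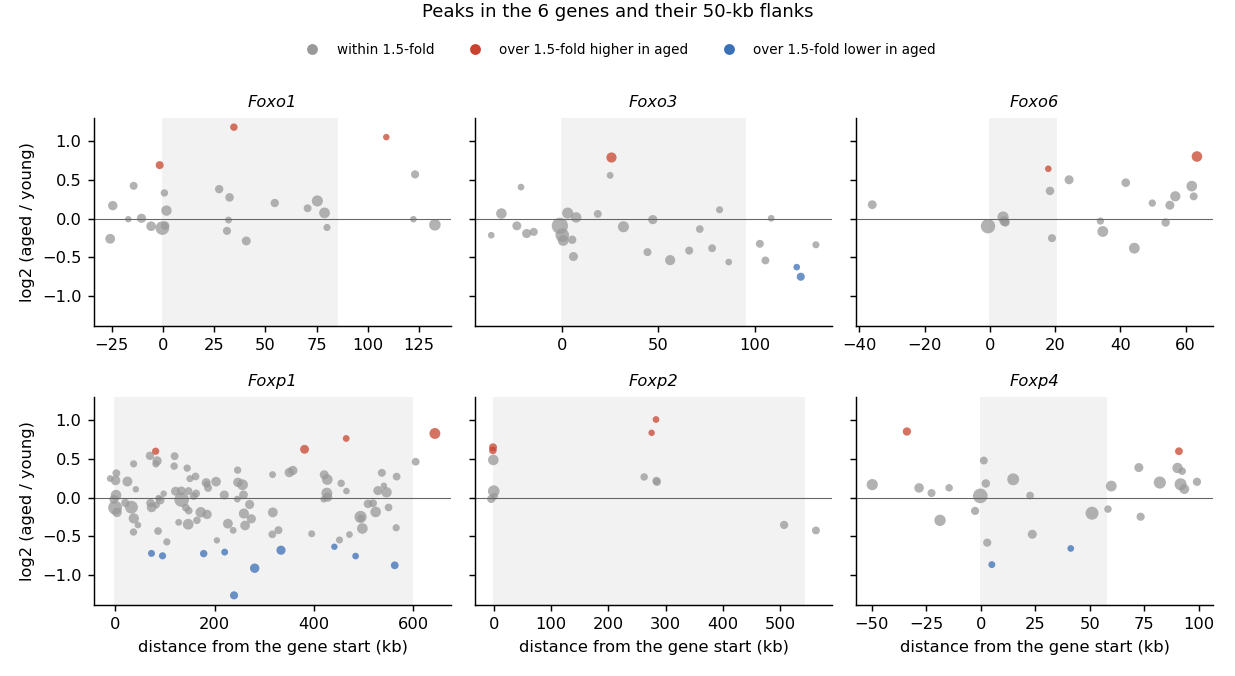
Log2 ratio of aged to young (y axis) of each peak with at least 50 fragments by distance from the gene start (x axis, kb; gene body shaded), with point area growing with the number of fragments. Red and blue points are over 1.5-fold higher and lower in the aged library. *Foxp1* shows 10 blue points along its introns, and *Foxo1*, *Foxo6* and *Foxp2* show none.

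The peak with the most fragments at each gene had a ratio near 0 at all 6 loci. It lay at the promoter of *Foxo1* (1171 young and 811 aged fragments; -0.12, -0.25 to 0.01), *Foxo6* (1451 and 1022; -0.10, -0.22 to 0.02), *Foxp2* (537 and 429; 0.08, -0.10 to 0.27) and *Foxp4* (1503 and 1151; 0.02, -0.09 to 0.13). At *Foxo3* it lay 1219 bp upstream of the start (2422 and 1712; -0.09, -0.18 to -0.0033), and at *Foxp1* in the intron described above. The differences over 1.5-fold were thus found at peaks with fewer fragments, where counting error is larger. Several of the peaks named above had counting intervals that excluded 0, but they were picked by their ratios. Whether weaker elements as a set differed more than counting error allows was not tested.

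FOX letters were found in the centres of 18 of the 260 peaks (6.92%), against 4.07% of all peaks. They were in 1 of the 16 higher peaks, the intronic peak of *Foxo3*, and in 0 of the 14 lower ones. PU.1 letters were found in 62 of the 260 (23.8%, against 20.9% of all peaks), in 1 of the higher and 5 of the lower peaks. Each of the other 11 sets of letters was found in 0 to 3 of the higher and 0 to 3 of the lower peaks. The RefSeq promoter table (GRCm38.p6) had windows of 300 bases for *Foxo1*, *Foxo3*, *Foxp1* and *Foxp4*. FOX letters were found in none of these genes' windows and in 3.65% of all 32851 windows. The *Foxo1* window begins at chr3:52268087, and the FOX letters of the printed *Foxo1* promoter peak lie just upstream of it.

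Fragments outside peaks showed how the background moved at each locus, a measure chosen after the data had been seen. Its log2 ratio was -0.08 (-0.14 to -0.01) at *Foxo3* and -0.07 (-0.11 to -0.03) at *Foxp1*, 0.13 (0.04 to 0.22) at *Foxo1* and 0.14 (0.05 to 0.23) at *Foxp2*, and 0.11 over the genome. *Foxo3* and *Foxp1* thus lay below the genome outside their peaks as well. The genome value includes DNA far from genes, and no value for other gene loci was computed. At *Foxo6* and *Foxp4* it was 0.04, with intervals that held 0.

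The pathway around FoxO was read at the promoters of gene lists. Of 23 genes upstream of FoxO, from insulin and IGF receptors through PI3K to Akt, 0 were higher and 0 lower by more than 0.32. Over all promoters 11.4% were higher and 6.54% lower by that limit. The median log2 ratio was -0.07 for the 23 genes and -0.05 for all promoters. The highest of the 23 was *Sgk1*, a kinase that phosphorylates FoxO much as Akt does, with 204 young and 192 aged fragments (0.32, 0.03 to 0.61), just within the limit. The lowest was *Irs2*, an adaptor of the insulin receptor, with 1857 and 1201 (-0.22, -0.33 to -0.12). Of 24 tested modifiers and partners of FoxO 1 (4.17%) was higher and 1 (4.17%) lower, against the same 11.4% and 6.54%. The higher was *Ywhaz* (32 and 32 fragments; 0.41, -0.35 to 1.16) and the lower *Usp7* (26 and 14; -0.44, -1.54 to 0.50). Each was counted at its outermost annotated start, which held few fragments. The deacetylases *Sirt1* (399 and 338 fragments; 0.17, -0.05 to 0.38) and *Sirt2* (1778 and 1160; -0.21, -0.32 to -0.10) were the highest and lowest modifiers and partners with at least 100 fragments.

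Among 40 tested FoxO targets 1 (2.5%) was higher and 5 (12.5%) lower in the aged library by that limit, where all promoters gave 11.4% and 6.54%, with a median of -0.11. The 5 lower ones, named after their values were seen, were *Il7r*, *Ccr7*, *Rag1*, *Fasl* and *Atg14*. The first 4 serve lymphocytes, as the interleukin-7 receptor, a homing receptor, the antigen receptor recombinase and a death ligand, and *Atg14* is an autophagy gene. *Il7r* had 79 young and 40 aged fragments (-0.56, -1.16 to -0.01) and *Ccr7* 137 and 70 (-0.55, -0.998 to -0.14). The others had few fragments and intervals that held 0, *Rag1* 62 and 35 (-0.40, -1.06 to 0.20), *Atg14* 24 and 13 (-0.43, -1.57 to 0.55) and *Fasl* 19 and 10 (-0.46, -1.79 to 0.66). The higher one was *Trim63*, a muscle ubiquitin ligase, with 8 and 20 fragments (1.63, 0.48 to 3.12).

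Of 20 FoxP partners and co-repressors 1 (5.0%) was higher and 0 lower, where all promoters gave 11.4% and 6.54%, with a median of -0.08. The lowest was *Ctbp1*, a co-repressor, with 2246 young and 1412 aged fragments (-0.26, -0.36 to -0.17). Among 38 other forkhead genes 4 (10.5%) were higher and 3 (7.89%) lower, with a median of 0.02, near the background of all promoters. Among those with at least 100 fragments *Foxb1*, a forkhead gene of the developing brain, was the highest, with 102 and 144 fragments (0.90, 0.53 to 1.29), and *Foxs1* the lowest, with 149 and 58 (-0.94, -1.42 to -0.51). The remaining members of both families are in that list and were named after their values were seen: *Foxo4* had 757 young and 532 aged fragments (log2 ratio -0.10, -0.26 to 0.06) and *Foxp3*, the regulator of regulatory T cells, 1015 young and 639 aged fragments (log2 ratio -0.26, -0.41 to -0.12). The 6 FoxO and FoxP promoters lay between the values of *Foxb1* and *Foxs1*.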

How the data were processed

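Fragments of 2 single-cell ATAC-seq libraries were used as deposited. Per the submitters' processing notes the authors used Cell Ranger ATAC, mm10 and Signac. The deposited files hold unique fragments with their barcode and, per barcode, counts of fragments made by the authors, with no normalization. Barcodes called as cells with 3000 to 20000 in-peak fragments in the authors' table were kept, whose 34450811 young and 25976379 aged fragments in combined peaks set the scale. The study states more cells of each age after quality control than these limits left. Cells with too many loci holding 3 or more of their fragments were marked as doublets and kept.

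A fragment counted once in a region where 1 of its ends lay. Genes and starts were from GENCODE M21 on GRCm38. Ratios compare aged with young on the log2 scale, 1 fragment being added to each count. Regions were named higher or lower from 20 fragments and 0.32 on the log2 scale (promoters, starts, gene bodies) or 50 fragments and 1.5-fold (bins, peaks, windows). Peaks were called in each library (Poisson, q under 0.001) and merged. Intervals are exact Poisson for levels, exact binomial for shares, and from the binomial share for ratios, at 95%. Counting was tested on simulated data. Python 3.11.15, numpy 2.4.6, scipy 1.17.1 and numba 0.67.0 were used.

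The genes and lists were chosen with earlier results of these data known. Named besides the 6 genes were, per list, the genes with the highest and lowest ratio among those with at least 100 fragments, the peak with the most fragments of each locus, and the 5 highest and 5 lowest peaks over all loci. Other named peaks are neighbours of these or lie at the starts, and were chosen after their values were seen. The values of some single genes of the lists are not reported here.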

Additional observations from a re-analysis of the deposited data

How the results depend on the processing

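No paired analysis was possible because each age has 1 library, and for the same reason no library could be left out. Depth limits the weaker elements most, since a 500-bp bin or narrow peak often held fewer than 100 fragments. Of 619 recomputed values, 582 stayed within the counting interval or within 1.5 times the count and 37 moved. The 582 include values that could not move, because a change of the fragment minimum leaves the ratio of a promoter, start or gene body as it was. Counting any overlap also left these ratios unchanged. The split of 582 and 37 is therefore not a measure of how stable the ratios were. Among the values recomputed, none of the differences whose interval excluded 0 changed sign. Sums over whole flanks, fragments outside peaks and single genes of the lists were not recomputed. The cause of the moves below was not tested. In cells of 5000 to 10000 in-peak fragments the promoter ratio of *Foxo1* was -0.18 and the gene body ratio of *Foxp4* 0.019. With short fragments only, the promoter ratio of *Foxo6* was 0.042 and the gene body ratios of *Foxo3* and *Foxp1* were -0.19 and -0.12. The gene body ratio of *Foxp1* was -0.11 scaled to all nuclear fragments, -0.028 with TMM and -0.025 with median of ratios, scalings that shifted all ratios by -0.03, 0.04 and 0.05. Thinned to 5000 in-peak fragments, the share of cells with a *Foxp2* promoter fragment was 2.57 percentage points higher in the aged library.

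The number of bins or peaks tested also differed. Flank bins higher in the aged library were 16 of 105 in cells of 5000 to 10000 fragments, 14 of 96 after thinning to 3000, 14 of 99 with short fragments, 280 of 1200 without a fragment minimum and 16 of 103 from 100 fragments, against 25 of 162. Lower bins were 2 in cells of 5000 to 10000 fragments, 258 without a minimum and 1 from 100 fragments. Higher peaks were 26 of 260 without a minimum and 8 of 155 in gene bodies only. Lower peaks were 9 of 180 in cells of 5000 to 10000 fragments, 7 of 164 after thinning, 29 of 260 without a minimum and 6 of 178 from 100 fragments. For *Foxp1* alone, higher peaks were 8 of 82 in cells of 5000 to 10000 fragments, 8 of 72 after thinning and 8 of 83 with short fragments, and lower peaks 5 of 82, 6 of 72, 16 of 121 without a minimum and 5 of 78 from 100 fragments. The 4 upstream windows of *Foxo1* and *Foxp2*, recomputed under alternatives chosen after seeing the data, had ratios of 0.45 to 1.01.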
